A study of Mus musculus with 2 samples.

Results

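The cells described here, nearly all myogenic, come from regenerating mouse muscle and have a high sum of 3 matrix transcripts, Spp1, Fn1 and Tnc. They numbered 458 of 3287 kept cells in 2 single-cell RNA libraries of FACS-isolated satellite cells, the muscle stem cells, taken from the biceps and recto femoris muscles 5 days after injury: 53 of 604 cells of the GFP+ library and 405 of 2683 cells of the GFP− library. Both libraries came from Pax3GFP/+ animals, in which GFP reports the locus of the transcription factor Pax3, and the genotype field of both labels reads wild-type. The GFP+ library was the Pax3-positive fraction and the GFP− library the Pax3-negative fraction, each loaded as 20000 cells on a 10x Chromium 3′ v3.1 chip. The labels do not say how many animals were pooled, and no uninjured group was analysed here.

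The members were chosen by measured values. Barcodes were kept from 1000 UMIs (unique molecular identifiers, each counting 1 captured transcript) and 500 detected genes upward, when no more than 10% of their UMIs were mitochondrial. A member had at least 30 UMIs of Spp1, Fn1 and Tnc together per 10000 UMIs, and stayed under limits for other classes. Per 10000 UMIs these were 10 for the macrophage genes Lyz2, C1qa, C1qb and Tyrobp, 5 for the mural genes Rgs5, Myh11 and Kcnj8, and 5 for Myog. They were 8 for G2/M genes, 6 for S phase genes, 10 for a set led by Erfe and Chrdl2, and 5 for Plagl1, Gpc3 and Gxylt2. Levels of these rule genes are therefore descriptions of the choice. Members are called matrix-high cells below, since secreted protein was not measured. Cells that passed the other gates but fell under 30 for the matrix sum are called matrix-low (138 GFP+ and 588 GFP−), and cells with the Plagl1, Gpc3 and Gxylt2 sum at 5 or more per 10000 UMIs but a low matrix sum are called Plagl1-Gpc3 cells (107 GFP+ and 638 GFP−). Each fraction is 1 library, so no test and no p-value is given. Levels are UMIs summed over cells and scaled to the total of those cells, in CPM, the usual per-total scale, and intervals are exact 95% intervals that cover counting error only.

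Spp1 encodes osteopontin, a secreted phosphoprotein that binds integrins and the receptor Cd44. Fn1 encodes fibronectin and Tnc encodes tenascin C, large matrix glycoproteins that are laid down in healing muscle and form part of the niche of activated satellite cells. Satellite cells express Pax7 and Myf5 when quiescent or newly activated, Myod1 as they become myoblasts, and Myog when they commit to differentiate. Nupr1 encodes a small chromatin-associated stress protein and was named as a marker of these cells although it was not in the rule.

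The kept cells had a median of 18534.5 UMIs in the GFP+ library and 14663 in the GFP− library, and 2 kept barcodes occurred in both. Matrix-high cells were deeper than the cells they were set against: their median was 24749 UMIs in GFP+ and 16933 in GFP−, against 20328.5 and 13570.5 in matrix-low cells of the same libraries. Their median mitochondrial share was 2.62% in GFP+ and 4.23% in GFP−. Scrublet, a doublet caller, marked 0 of the members, but it marked only 5 kept GFP+ cells and 2 kept GFP− cells in all, which is too few for the caller to have worked in the GFP− library, so doublets were not removed.

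Matrix-high cells made up 8.77% of kept GFP+ cells (interval 6.64% to 11.3%) and 15.1% of kept GFP− cells (13.8% to 16.5%). The GFP+ share was 0.581 times the GFP− share. The intervals cover the counting of cells within each library, and with 1 library per fraction a difference between the fractions was not tested. Erfe-Chrdl2 cells, at 16.7% of GFP+ cells and 1.60% of GFP− cells, and macrophage-gate cells, at 12.4% and 2.12%, enter these denominators. Among cells that passed the macrophage and mural gates the shares were 10.0% of 529 GFP+ cells and 16.1% of 2514 GFP− cells. The rule's edge ran through a continuous range: 5 GFP+ and 46 GFP− members lay within 5 per 10000 above it (the nearest at 30.8 and 30.1), and 7 GFP+ and 55 GFP− matrix-low cells lay within 5 below it (the nearest at 29.8 and 29.9).

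**Figure D1:**
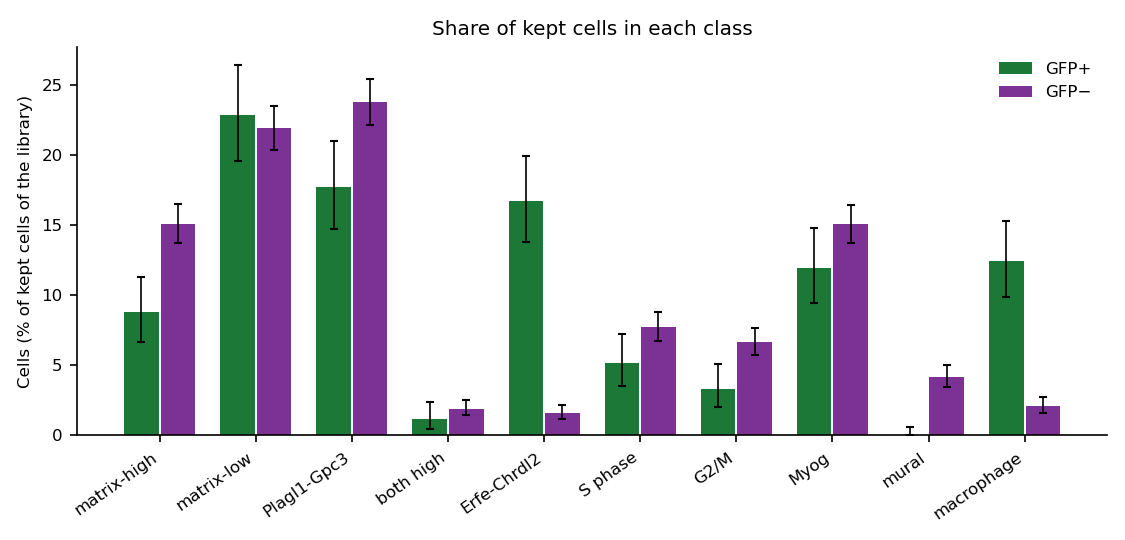
Share of kept cells (%) in each class, GFP+ in green left of GFP− in purple; whiskers are exact 95% binomial intervals. Matrix-high cells were 8.77% of GFP+ and 15.1% of GFP− cells, while Erfe-Chrdl2 and macrophage-gate cells were larger shares of GFP+.

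The members were checked against marker lists of the cell types that the sort could hold. All 10 myogenic markers (Pax7, Myf5, Myod1, Cdh15, Des, Msc, Itga7, Vcam1, Chrna1 and Megf10) were at 20 CPM or more in both libraries, and their sum was 2816 CPM in GFP+ and 2880 CPM in GFP− members. In macrophage-gate cells the sum was 93.3 CPM in GFP+ and 726 CPM in GFP−, and in mural-gate cells 808 CPM. All but 1 of the 10 were also at 20 CPM or more in GFP− macrophage-gate cells, so that mark alone does not separate the cell types there. The 14 macrophage markers outside the gate summed to 9.57 CPM in GFP+ and 12.4 CPM in GFP− members, with 8 and 4 of them at 0, against 26463 and 18343 CPM in macrophage-gate cells. Neutrophil and erythroid markers were at 0 in members of both libraries, and lymphoid markers summed to 0 and 0.558 CPM. Acta2, Tagln and Notch3 carried the mural list to 2352 CPM in GFP+ and 2590 CPM in GFP− members, against 12167 CPM in the 112 mural-gate cells of the GFP− library. The same list summed to 1501 CPM in GFP+ and 1551 CPM in GFP− matrix-low cells and to 890 and 884 CPM in Plagl1-Gpc3 cells. Of the 10 mural markers 1, Higd1b, was at 0 in the members of both libraries, and Pdgfrb was also at 20 CPM or more in both. The part of mural RNA in the comparisons was not tested.

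Before the results, 4 members have to be set apart: 2 GFP+ and 2 GFP−. They carried fibro-adipogenic progenitor markers, with the 13-gene list at 286 to 1498 per 10000 UMIs, and had 0 UMIs of Pax7, Myf5, Myod1 and Cdh15. Fibro-adipogenic progenitors are the stromal cells of muscle and a main source of collagen after injury. One GFP+ cell held 804 UMIs of Col1a1 and the other 612, with 67 UMIs of Lum and 62 of Dcn in the second. Without these 4 cells the lowest myogenic sum among members was 15.1 per 10000 in GFP+ and 11.5 in GFP−. Of the 13 genes, 6 were at 0 in the 51 GFP+ members left, among them Pdgfra, Dcn and Lum. In the 403 GFP− members left 3 were at 0, Dcn, Lum and Cxcl14. Ly6a, Col1a1, Col3a1 and Gsn stayed at 20 CPM or more in both, and the list summed to 1504.5 and 1536 CPM. Its highest value in a member left was 143 per 10000 in GFP+ and 99.9 in GFP−. Cells were set apart at 100 or more per 10000 on this list with a myogenic sum under 5. Across all classes 6 GFP+ and 6 GFP− cells had this profile, and values given without fibro-adipogenic cells leave out all of them from both classes. Calls that these cells decide are given with and without them.

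Spp1 set the level of the sum. It was the largest of the 3 genes in 51 of 53 GFP+ members (96.2%, interval 87.0% to 99.5%) and in 382 of 405 GFP− members (94.3%, 91.6% to 96.4%). The sum ran over a wide range, with a lowest, median and highest value of 30.8, 55.4 and 431 per 10000 in GFP+ members and of 30.1, 64.2 and 297 in GFP− members. Fn1 led in 1 GFP+ and 22 GFP− members, and Tnc in 1 of each. The 2 GFP+ members not led by Spp1 were the 2 fibro-adipogenic marker cells. The 20 Fn1-led GFP− members that were not such cells held 2398 CPM of Fn1 and 762 CPM of Tnc, against 945 and 354 CPM in the 382 Spp1-led GFP− members. Their Pax7 and Cdh15 levels, 179 and 434 CPM, were near those of the Spp1-led cells, 140 and 392 CPM.

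Summed over the members, Spp1 was at 6655 CPM in GFP+ (6524 to 6789) and 6393 CPM in GFP− (6334 to 6452). The 53 GFP+ members held 57.4% of all Spp1 UMIs of the kept GFP+ cells and the 405 GFP− members 53.3% of those of the GFP− cells. Free RNA in droplets with 1 to 100 UMIs held Spp1 at 1404 and 1609 CPM, below the members in both libraries, whereas Erfe-Chrdl2 cells held 15.5 and 57.5 CPM. Macrophage-gate cells, which are known to make osteopontin, held 1725 and 1901 CPM. S phase cells held 1095 and 2324 CPM, and G2/M cells 1568 and 2124 CPM. Another 7 GFP+ and 51 GFP− cells reached the matrix threshold but failed the Plagl1, Gpc3 and Gxylt2 limit. They held Spp1 at 2257 and 4886 CPM. Fn1 was at 689 CPM in GFP+ members and 1028 CPM in GFP− members, and Tnc at 523 and 383 CPM. The cells over both limits, with 1 fibro-adipogenic cell in each library, held Fn1 at 1110 and 621 CPM and Tnc at 244 and 248 CPM.

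Of 13 genes looked up in the RefSeq promoter table (GRCm38.p6), 10 matched, among them Spp1, Tnc and Nupr1. The 250 bases before the start are shown because these genes mark the members, with the E-box letters CANNTG, the motif read by myogenic bHLH factors, in capitals. CANNTG reads the same on both strands and stood in 66.0% of 27025 promoters of this length. Also searched, on both strands, were the AP-1 letters TGANTCA, in 6.87% of promoters, and the TEAD letters GGAATG, in 12.6%.
Spp1, chr5:104434861-104435110, plus strand: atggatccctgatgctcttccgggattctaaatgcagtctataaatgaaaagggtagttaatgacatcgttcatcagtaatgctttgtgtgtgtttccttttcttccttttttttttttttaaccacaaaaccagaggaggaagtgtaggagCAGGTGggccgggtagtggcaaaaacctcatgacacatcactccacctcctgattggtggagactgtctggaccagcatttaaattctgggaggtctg
Tnc, chr4:64047016-64047265, minus strand: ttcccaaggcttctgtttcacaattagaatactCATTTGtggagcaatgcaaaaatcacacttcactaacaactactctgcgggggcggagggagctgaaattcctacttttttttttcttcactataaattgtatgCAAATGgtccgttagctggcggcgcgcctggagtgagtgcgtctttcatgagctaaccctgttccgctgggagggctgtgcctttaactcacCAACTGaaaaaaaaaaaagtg
Nupr1, chr7:126625471-126625720, minus strand: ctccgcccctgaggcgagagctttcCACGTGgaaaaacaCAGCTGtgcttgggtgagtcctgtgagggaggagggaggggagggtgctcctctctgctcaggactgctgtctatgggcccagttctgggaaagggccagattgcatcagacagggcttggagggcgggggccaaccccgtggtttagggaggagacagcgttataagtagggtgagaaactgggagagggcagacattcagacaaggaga
Spp1 had 1 match, starting 98 bases before the start, Tnc had 3 and Nupr1 had 2. The AP-1 and TEAD letters were in none of these 3 windows, which says only that the letters are not there. Among the other 7 matched genes, AP-1 letters had no match and TEAD letters had 1, in Timp1. A match is a description and not a binding site. Fn1 lies on chromosome 1 at 71585520 to 71653200 on the minus strand.

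Nupr1 was outside the rule. The levels were 523 CPM in matrix-high and 198 CPM in matrix-low GFP+ cells, and 344 and 167 CPM in the GFP− cells, a ratio of 2.64 in GFP+ and 2.07 in GFP−. Its median in single GFP+ members was 3.02 per 10000 and in GFP− members 2.49, with highest values of 24.9 and 23.8. After every cell was thinned to 5000 UMIs, Nupr1 was seen in 69.8% of 53 GFP+ members and 65.7% of 394 GFP− members, against 38.2% and 37.4% of matrix-low cells; 11 shallower GFP− members were left out of this. In macrophage-gate cells, which are another cell type, the share was 26.5% of GFP+ and 20.5% of GFP− cells at that depth. The unthinned shares in members were 92.5% and 86.9%. Free RNA held Nupr1 at 251 CPM in the GFP+ and 211 CPM in the GFP− library, below the members and above the matrix-low cells of both.

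**Figure D2:**
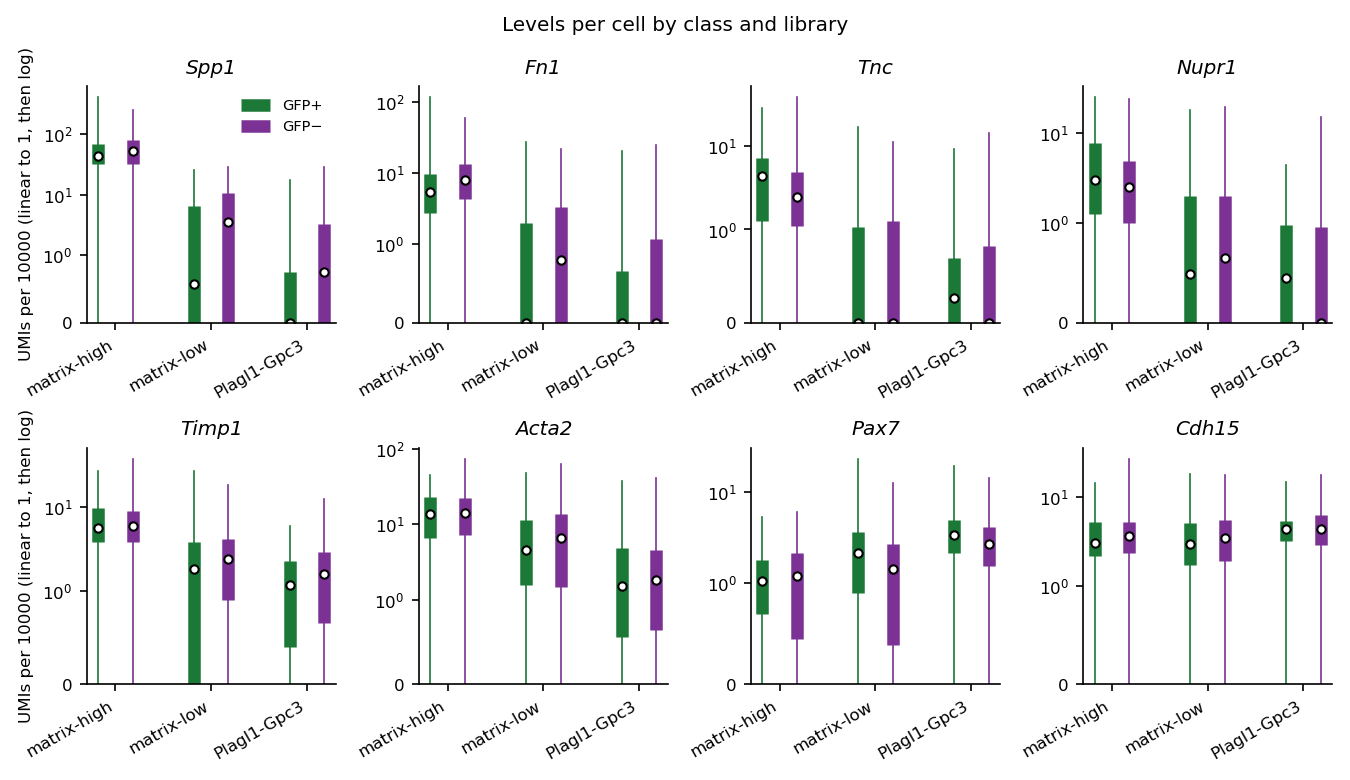
UMIs per 10000 in single cells of each class (scale linear to 1, then log), GFP+ in green left of GFP− in purple; the thin line is the range, the thick bar the middle quartiles of the cells and the point the median. Matrix-high cells hold Nupr1 medians of 3.02 in GFP+ and 2.49 in GFP−, and Cdh15 medians of 2.99 and 3.58, against 2.97 and 3.46 in matrix-low cells.

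Nupr1 and the Spp1 level were also read in cells chosen without Spp1. As many cells as there were members were taken by Fn1 and Tnc alone among the matrix-high and matrix-low cells. Both libraries were ranked together, and the number per library was not fixed. It came out at 53 GFP+ and 405 GFP− cells. Of these, 33 of 53 in GFP+ and 304 of 405 in GFP− were members. Spp1 was at 5058 CPM in the chosen and 1415 CPM in the remaining GFP+ cells, a ratio of 3.57 (interval 3.44 to 3.72), and at 5292 and 1692 CPM in GFP− cells, a ratio of 3.13 (3.07 to 3.19). Nupr1 was 2.92-fold higher in GFP+ and 2.21-fold higher in GFP−. Thinned to 5000 UMIs, Fn1 and Tnc had a Spearman correlation of 0.29 over 51 GFP+ and 0.37 over 392 GFP− members, Spp1 and Fn1 of 0.31 and −0.01, and Spp1 and Tnc of −0.03 and 0.08. With Nupr1 the values in GFP+ and GFP− were 0.22 and 0.09 for Spp1, 0.35 and 0.14 for Fn1, and 0.13 and 0.09 for Tnc. The members were chosen on the sum of Spp1, Fn1 and Tnc, and that choice by itself shapes the correlations among these genes. Cells of 1 library also share its depth and free RNA, so these are descriptions only.

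Few other genes differed by 2-fold between matrix-high and matrix-low cells. Of 5466 genes at 20 CPM or more, 31 were at least 2-fold higher in both libraries (0.567%) and 33 at least 2-fold lower (0.604%), of which 3 higher and 3 lower are rule genes. Without the fibro-adipogenic cells the counts were 27 (0.495%) and 37 (0.678%) of 5460. Against Plagl1-Gpc3 cells, 154 of 5612 genes were higher (2.74%) and 170 lower (3.03%). The median log2 ratio against matrix-low cells was 0.01 in GFP+ and −0.01 in GFP−. Without the fibro-adipogenic cells 148 genes were higher (2.64%) and 172 lower (3.07%) than in Plagl1-Gpc3 cells.

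Among genes outside the rule that were called higher in both libraries, ranked by the smaller of the 2 ratios, AA467197 came first, at 36.9 CPM in matrix-high and 2.96 CPM in matrix-low GFP+ cells and 58.5 and 8.64 CPM in GFP− cells. It was 12.5-fold higher in GFP+ (5.90 to 30.3) and 6.78-fold higher in GFP− (5.27 to 8.83). After thinning to 5000 UMIs it was seen in 11.3% of GFP+ and 14.2% of GFP− members, against 4.41% and 6.82% of macrophage-gate cells and 0.763% and 2.62% of matrix-low cells; the unthinned shares in members were 20.8% and 27.2%. Cotl1, which encodes an actin-binding protein of the coactosin type, was 4.99-fold higher in GFP+ and 3.30-fold higher in GFP−. Thinned, it was seen in 62.3% of GFP+ and 51.8% of GFP− members, against 91.2% and 81.8% of macrophage-gate cells and 7.63% and 17.9% of matrix-low cells. Kctd12 was likewise seen in 22.6% of GFP+ and 23.6% of GFP− members, against 58.8% and 56.8% of macrophage-gate cells and 3.82% and 8.22% of matrix-low cells. Kctd12, Enpp1, a pyrophosphate-generating enzyme, Prkg2, a cGMP-dependent kinase, and Tnni1, the slow muscle troponin I, were 2.97-fold to 5.91-fold higher. Chst2, a sulfotransferase, was 3.12-fold and 2.74-fold higher, Ctsc, the protease cathepsin C, 2.45-fold and 3.09-fold, and Edil3, a secreted integrin ligand, 2.39-fold and 2.59-fold. Pdgfrb, the receptor that marks mural cells and fibroblasts, was 3.43-fold and 3.21-fold higher, but without the fibro-adipogenic cells it was under 20 CPM and was not tested. Pcdh19, a protocadherin, and Tgfbi, a secreted adhesion protein, were called with those cells and fell under 20 CPM in GFP+ without them, at 17.5 and 18.2 CPM. With Col1a1 and Fbln2 these were the 5 higher calls that rested on those cells, and the other 26 were called both ways.

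**Figure D3:**
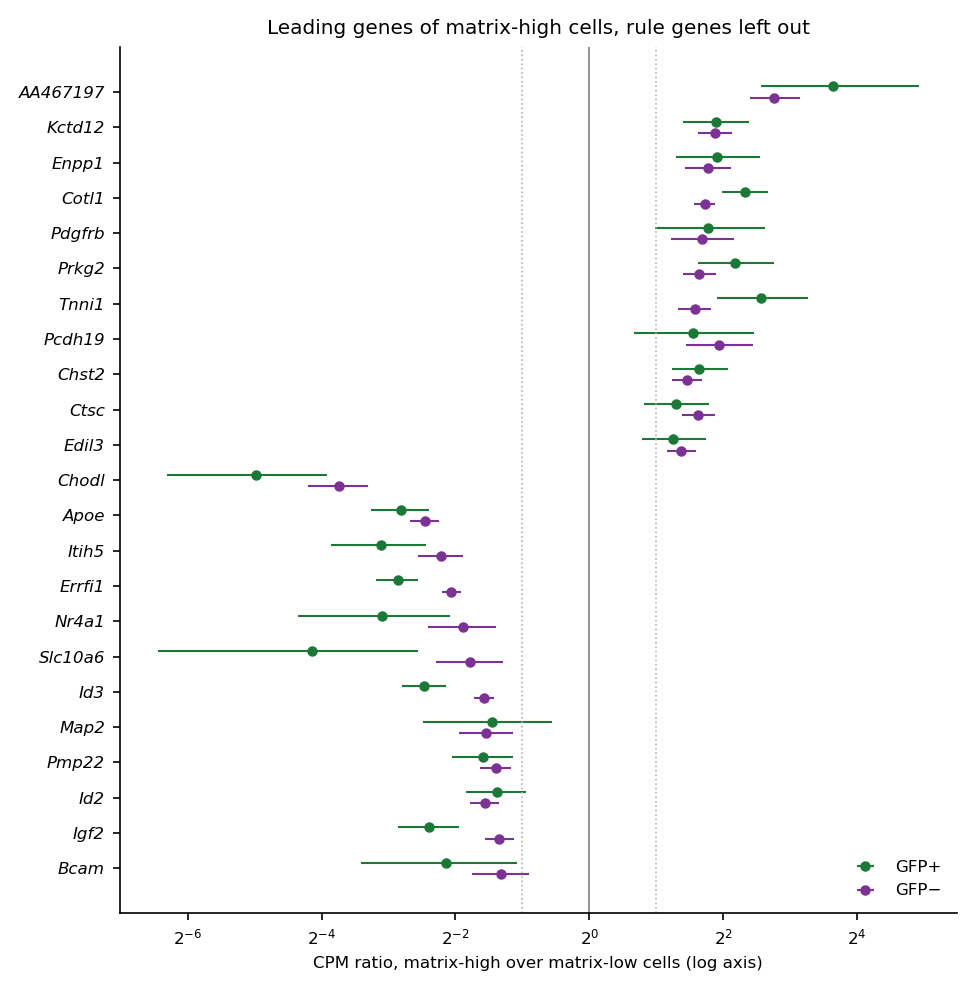
Ratio of CPM in matrix-high over matrix-low cells for 11 of the 12 highest and the 12 lowest genes outside the rule (log axis), GFP+ above GFP−; bars are exact 95% intervals for counting error. AA467197 stands highest, at 12.5 in GFP+ and 6.78 in GFP−, and Chodl lowest, at 0.032 and 0.075.

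Single matrix genes other than Spp1, Fn1 and Tnc were also higher. Of 14 collagens tested, 2 were higher than in matrix-low cells, Col1a1 and Col6a3, and 0 lower; of 19 matrix glycoproteins 2 were higher, Fbln2 and Tgfbi, and 1 lower, Ccn1. Over all genes tested the shares were 0.567% higher and 0.604% lower. Col1a1 was 2.59-fold higher in GFP+ and 2.34-fold in GFP−, but 1.64-fold and 2.09-fold without the fibro-adipogenic cells, so it lost the 2-fold call. Col6a3 was 2.32-fold and 2.74-fold higher with those cells and 3.21-fold and 2.70-fold without them. Fbln2, which encodes fibulin 2, was 2.43-fold higher in GFP+ and at the 2-fold limit in GFP−, and 1.97-fold in GFP− without them, just under the call. Lox, the enzyme that cross-links collagen, was 2.48-fold and 2.22-fold higher, and Timp1, an inhibitor of matrix metalloproteinases, 2.59-fold and 2.24-fold higher; Sdc1, a cell-surface proteoglycan that binds fibronectin, was 2.28-fold and 2.07-fold higher. Of 10 receptor genes tested for these ligands Sdc1 was the one called, and the list's median log2 ratio was 0.61 in GFP+ and 0.34 in GFP−. Cd44, the osteopontin receptor, was at 246 CPM in matrix-high and 159 CPM in matrix-low GFP+ cells and at 250.5 and 228 CPM in GFP− cells. Itga5, the fibronectin receptor subunit, was 2.35-fold higher in GFP+ and 1.92-fold in GFP−, short of 2-fold in the second, and Sdc4, another syndecan, was at 0.390 and 0.569 times. Laminins and basement membrane genes had 0 of 11 called, and Sparc, a major secreted glycoprotein of these cells at 2237 CPM in GFP+ and 2033 CPM in GFP− members, was at 1.15 and 1.21 times its matrix-low level. Of 12 laminin and basement membrane genes tested against Plagl1-Gpc3 cells, 1 was higher and 2 lower, where 2.74% and 3.03% of all genes were. Col18a1, a basement membrane collagen, was 4.53-fold higher in GFP+ and 3.80-fold higher in GFP−. Col4a1 and Col4a2, the collagen IV chains, were at 0.257 and 0.310 times in GFP+ and 0.247 and 0.303 times in GFP−.

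Of 17 genes listed for satellite cell quiescence, 2 were lower in matrix-high than in matrix-low cells, Chodl and Cdkn1c, and 0 higher, where 0.604% of all genes tested were lower and 0.567% higher. Chodl, which encodes the membrane protein chondrolectin, was at 4.78 CPM in matrix-high and 151 CPM in matrix-low GFP+ cells and at 6.41 and 85.2 CPM in GFP− cells. Apoe and Itih5 were at 0.143 and 0.116 times in GFP+ and at 0.182 and 0.215 times in GFP−. Id2 and Id3, which block bHLH factors, were at 0.382 and 0.181 times in GFP+ and 0.339 and 0.335 times in GFP−. Of 24 immediate-early and dissociation stress genes 3 were lower than in matrix-low cells, Egr1, Nr4a1 and Socs3, and 8 lower than in Plagl1-Gpc3 cells, where 0.604% and 3.03% of all genes were lower. These genes also respond to cell isolation, and its part was not tested. Of 13 imprinted growth genes tested against Plagl1-Gpc3 cells 7 were lower and 0 higher, where 3.03% and 2.74% of all genes were, with a list median log2 ratio of −1.09 in GFP+ and −1.07 in GFP−. Plagl1, itself imprinted, was in the gate between these classes and is not in this list. Against matrix-low cells the growth factor gene Igf2 was at 0.191 times in GFP+ and 0.394 times in GFP−, and Cdkn1c, an imprinted cell cycle inhibitor, at 0.317 and 0.411 times.

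Of the other cell cycle inhibitors, Cdkn2b was 2.33-fold higher in GFP+ and 2.15-fold higher in GFP− than in matrix-low cells, and Cdkn2a, its neighbour at the same locus, 2.24-fold and 1.87-fold higher. Pax7 was at 0.567 and 0.839 times the matrix-low level, and Myod1 at 0.412 and 0.543 times. Against Plagl1-Gpc3 cells the Pax7 ratio was 0.384 in GFP+ and 0.488 in GFP− and Myod1 was 2.39-fold and 2.37-fold higher. Cdh15, a satellite cell cadherin, was at 0.969 and 0.972 times the matrix-low level.

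Of 37 actin cytoskeleton and adhesion genes tested against Plagl1-Gpc3 cells, 15 were at least 2-fold higher in both libraries and 0 lower, where 2.74% and 3.03% of all genes were, with a list median log2 ratio of 1.05 in GFP+ and 0.96 in GFP−, against 0.02 and 0.04 over all genes. Against matrix-low cells, 0 of 37 passed 2-fold, with medians of 0.52 and 0.41. Tnnt2, the cardiac troponin T expressed in early myogenic cells, was 77.7-fold higher in GFP+ and 17.3-fold higher in GFP− than in Plagl1-Gpc3 cells. Its level was 232 CPM in Spp1-led GFP+ members and under 20 CPM in Plagl1-Gpc3 cells of both libraries. The GFP+ ratio therefore rests on few UMIs and is imprecise. Myl9, a myosin light chain, was 11.4-fold and 8.05-fold higher than in Plagl1-Gpc3 cells. Acta2 was at 1582 CPM in GFP+ and 1715 CPM in GFP− members, 4.03-fold and 4.53-fold above Plagl1-Gpc3 cells. Scx, a transcription factor of tendon cells, was 5.19-fold and 4.05-fold higher than in Plagl1-Gpc3 cells. The list of 8 tendon markers that holds it summed to 92.2 CPM in GFP+ and 81.4 CPM in GFP− members. Without the fibro-adipogenic cells the member sums were 75.5 and 77.7 CPM. With all cells kept, the list summed to 62.5 and 65.3 CPM in matrix-low cells and to 37.0 and 19.2 CPM in Plagl1-Gpc3 cells. After thinning, Scx was seen in 18.9% of GFP+ and 25.4% of GFP− members and in 13.0% and 19.1% of matrix-low cells. With all cells kept, Thbs4 went the other way in GFP+. It was under 20 CPM in members and at 20 CPM or more in Plagl1-Gpc3 cells, which include 1 fibro-adipogenic cell. Without the fibro-adipogenic cells Thbs4 was at 0 in GFP+ members, and its level in Plagl1-Gpc3 cells without theirs is not given here. Fmod, which encodes the matrix proteoglycan fibromodulin, was at 7.52 and 10.3 CPM in members and 0.486 and 0.363 CPM in Plagl1-Gpc3 cells, and Chad and Kera were at 0 in members of both libraries. The mural markers Acta2 and Tagln are in the actin cytoskeleton and adhesion list. The mural list was higher in members than in either other class, as given above. Edn3 and Bmp6, secreted factors, were at 0 and 1.37 CPM in GFP+ members and 0.697 and 1.67 CPM in GFP− members, against 36.5 and 55.0 CPM in GFP+ and 31.0 and 44.7 CPM in GFP− Plagl1-Gpc3 cells.

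Some levels changed along the matrix sum on both sides of the rule's edge. Cells were binned by the sum at 0, 5, 15, 30, 60 and 120 per 10000. In GFP− cells Timp1 was at 209, 328, 450, 529, 824 and 1119 CPM over the 6 bins, and Lox rose in each bin to 216 CPM. Chodl was at 212 CPM in the lowest GFP− bin and at 9.17 CPM in the 15 to 30 bin, before the rule's edge, and at 284 CPM in the lowest GFP+ bin. The top GFP+ bin held only 8 cells and the bin below it 17, so a step there is uncertain. Cdkn1c was at 1207 CPM in the lowest and 158 CPM in the highest GFP+ bin, and at 1561 and 385 CPM in GFP−, with GFP+ values between them that did not fall in order.

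**Figure D4:**
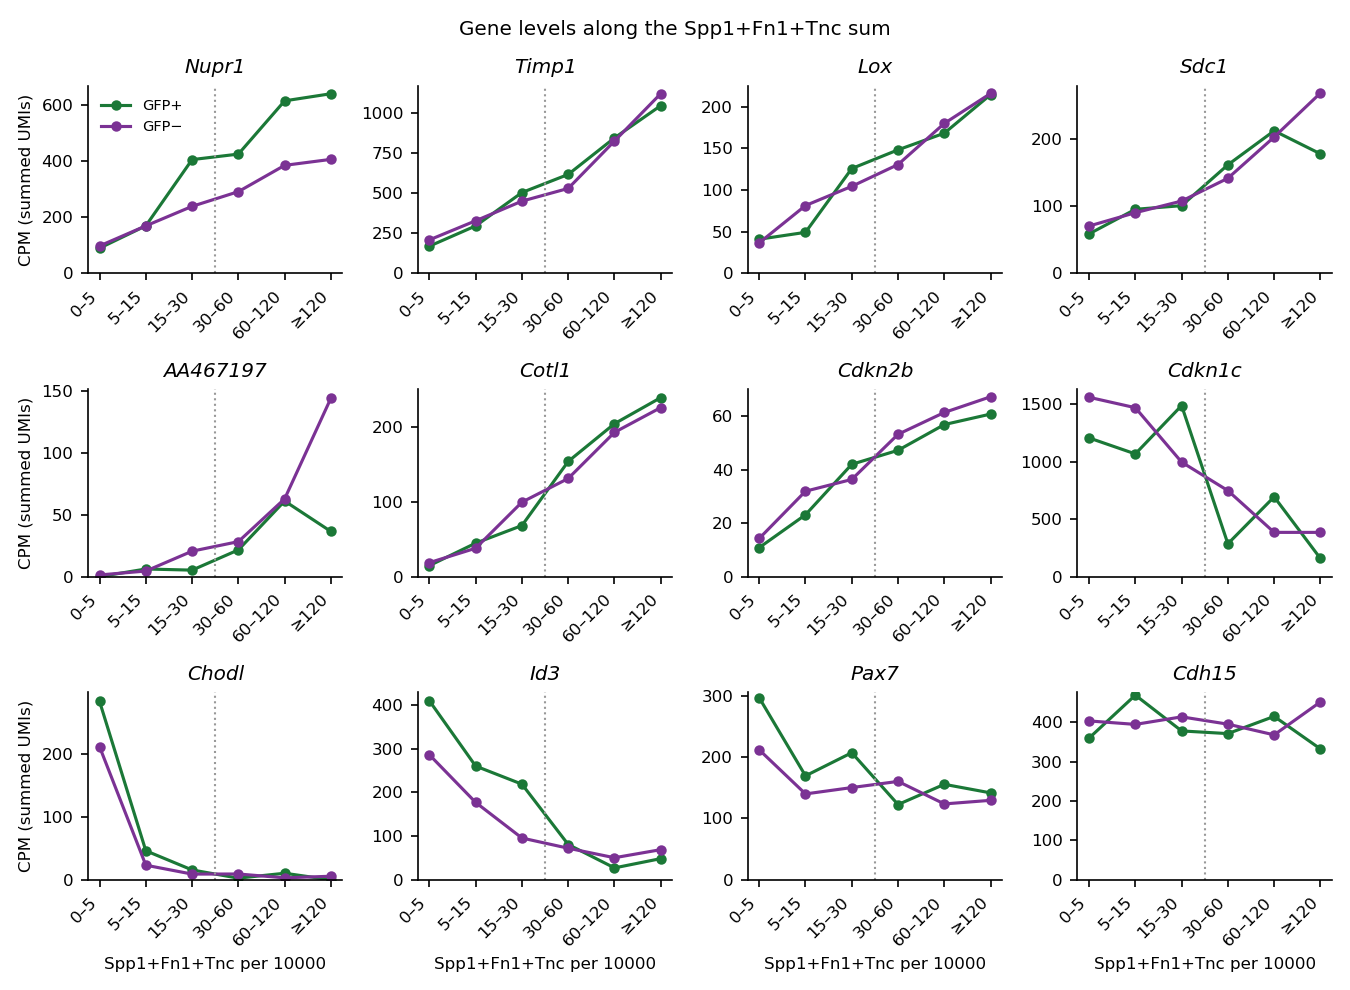
CPM of 12 genes in cells binned by the Spp1, Fn1 and Tnc sum per 10000 UMIs, GFP+ in green and GFP− in purple; the dotted line marks the rule's edge at 30. In GFP− cells Timp1 goes over the 6 bins through 209, 328, 450, 529, 824 and 1119 CPM, and Chodl lies at 284 CPM in the lowest GFP+ bin and 212 CPM in the lowest GFP− bin.

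The fractions were compared within the members. The GFP reporter feature of the reference was at 42.4 CPM in GFP+ members (62 UMIs) and at 0 in GFP− members, where a count of 0 allows up to 0.418 CPM; that is at least 101-fold higher in GFP+. Pax3 itself was at 13.7 CPM (20 UMIs) in GFP+ and 5.30 CPM (38 UMIs) in GFP− members, a ratio of 2.58 (1.42 to 4.55), and both levels lay below 20 CPM, so it did not enter the call. Six2, a homeobox factor, was at 38.9 CPM in GFP+ and 10.7 CPM in GFP− members, a ratio of 3.63 (2.53 to 5.18). It was 2.61 in matrix-low and 3.15 in Plagl1-Gpc3 cells, so the ratio is not shown to be particular to members.

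Of 5793 genes tested, 72 were at least 2-fold higher in GFP+ members with an interval above 1 (1.24%) and 29 at least 2-fold lower (0.501%). Of the 72 higher genes, 36 were also higher in GFP+ matrix-low cells and 32 in GFP+ Plagl1-Gpc3 cells. Of the 29 lower genes, only 5 were also lower in GFP+ matrix-low cells and 4 in GFP+ Plagl1-Gpc3 cells. The shares of all genes that differed so in those classes are not given here. Of the same 72, 51 were still higher without the fibro-adipogenic cells, when 56 genes were higher (0.968% of 5786) and 37 lower (0.639%), and in 15 of the 72 one cell held over 50% of the GFP+ UMIs. Lum was at 51.2 CPM in GFP+ and 0.976 CPM in GFP− members with them and at 0 in both without them. Ptgs2, Ccl7, Ptx3, Dcn, Il6 and Mfap5 were also among the 12 highest with them and not without them. The imprinted RNA Meg3 was 3.84-fold higher with them and at 0.333 times without them. The fractalkine receptor gene Cx3cr1 was at 51 UMIs in GFP+ members, all from 1 cell, and 0 in GFP− members.

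The rule genes and Nupr1 differed by less than 2-fold between the fractions. Spp1 was at 1.04 times in GFP+ members (1.02 to 1.06). Fn1 was at 0.670 times (0.627 to 0.716) and at 0.569 times without the fibro-adipogenic cells, Tnc at 1.37 and 1.27 times, and Nupr1 at 1.52 and 1.54 times. With these cells 3 of 16 collagens were called higher in GFP+, Col1a1, Col14a1 and Col16a1, and without them 0 of 14. Col1a1 was 2.45-fold higher with them and 1.08-fold without them. Among the genes called lower in GFP+ members, Cxcl10, an interferon-induced chemokine, was at 7.52 CPM in GFP+ and 123 CPM in GFP− members, a ratio of 0.061 (0.030 to 0.110); in matrix-low cells it was 0.119. Members with a high interferon sum numbered 2 in GFP+ (3.77%) and 23 in GFP− (5.68%). Gstp1 was 3.43-fold higher in GFP+ members, and Notch2, a receptor of satellite cell maintenance, 2.22-fold (1.76 to 2.78). The ratios of Gstp1 and Notch2 in the other classes are not given here, so neither is shown to be particular to members.

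**Figure D5:**
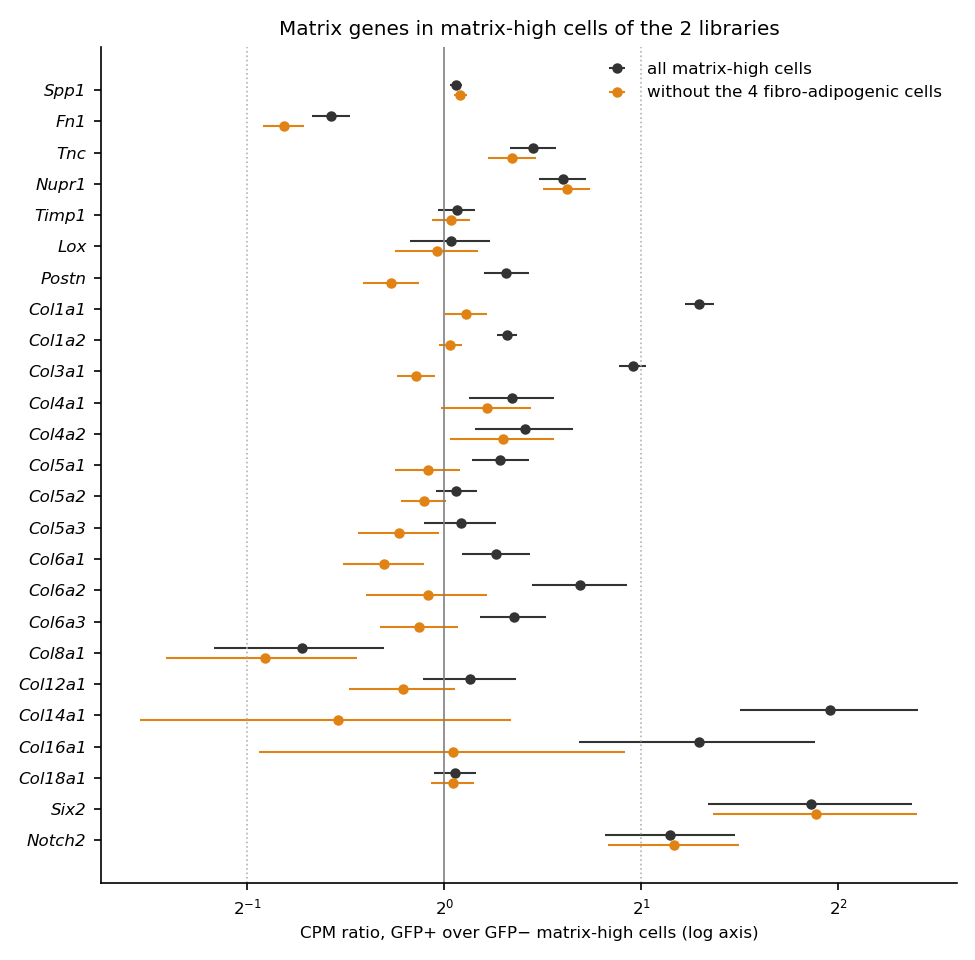
Ratio of CPM in GFP+ over GFP− matrix-high cells for 25 genes, most of them matrix genes (log axis), with all members in dark grey above and without the 4 fibro-adipogenic cells in orange; bars are exact 95% intervals for counting error. Col1a1 lies at 2.45 with those cells and 1.08 without them, and Fn1 at 0.670 and 0.569.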

How the data were processed

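The files hold UMI counts per gene and barcode, as deposited, made with Cell Ranger 4 per the file headers; the submitters' processing notes also name Seurat and mm10. No label or header gives the annotation or the counting settings. Of 32286 features, 32158 matched GENCODE M21, which gave positions on GRCm38.

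Of 647 GFP+ barcodes with at least 1000 UMIs, 43 were removed for their mitochondrial share and 604 were kept. Of 3076 such GFP− barcodes, 388 were removed for their mitochondrial share and 5 for too few genes alone, and 2683 were kept. Total depth was 13928952 UMIs in the GFP+ and 49709323 in the GFP− library. CPM were computed here from counts summed over the cells of a class. A gene was tested from 20 CPM in 1 of the 2 classes; class calls needed 2-fold in the same direction in both libraries, and calls between the libraries needed 2-fold and an exact 95% interval that left out 1. Intervals are exact conditional binomial ones for ratios, Clopper-Pearson for shares and Poisson for levels. A count of 0 was bounded by 3 counts. For detection, cells were thinned to 5000 UMIs. With 1 library per fraction no test between samples was possible. Computation used scanpy 1.11.5 with its Scrublet, pandas 2.3.3, scipy 1.17.1 and numpy 2.4.6 under Python 3.11.15, and figures matplotlib 3.10.9; the scripts were tested on simulated data. Named genes were the markers, their receptors, Pax and myogenic factors, the 12 highest and 12 lowest ratios of each comparison and up to 4 members of each list; other names were chosen after their values were seen. The members and lists were chosen with earlier results of these data known, and the fibro-adipogenic cells were set apart after the data were seen. Some genes that meet the naming rule are not reported here.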

Additional observations from a re-analysis of the deposited data

Results flagged for a closer look

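Ccl21a, a chemokine gene of a multicopy family whose reads may be split between near-identical copies, went in opposite directions in the libraries. It was at 22.5 CPM in matrix-high and 74.8 CPM in matrix-low GFP+ cells, a ratio of 0.302 (0.202 to 0.437), and at 30.4 and 11.2 CPM in GFP− cells, a ratio of 2.72 (2.13 to 3.51). The difference between the 2 ratios was not tested.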

How the results depend on the processing

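Of 120 alternatives for shares and counts of genes, 85 stayed within the limits set for them and 35 moved; the cause of the moves was not tested except where an alternative changes the number of genes or cells by construction. The matrix-high share was 11.6% of GFP+ and 19.1% of GFP− cells with the matrix sum from 20, and 6.13% and 10.96% from 45; in GFP− it was 16.5% with a Plagl1, Gpc3 and Gxylt2 limit of 10 and 17.1% with a mitochondrial limit of 5%. Against matrix-low cells, the 31 higher and 33 lower genes became 131 and 298 with no CPM minimum, 112 and 97 at 1.5-fold, 48 and 66 as a mean over cells, and 117 and 168 in the GFP+ library alone. The lower count was also 16 from 50 CPM, 51 after thinning and 56 with the Plagl1 limit of 10. Against Plagl1-Gpc3 cells, 154 and 170 became 528 and 528 with no minimum, 90 and 101 from 50 CPM, 372 and 363 at 1.5-fold, and 290 and 362 in GFP+ alone. Between GFP+ and GFP− members, 72 and 29 became 274 and 199 with no minimum, 30 and 6 from 50 CPM, 252 and 269 at 1.5-fold, and 195 and 104 after thinning, which shared 52 and 7 genes with the first counts. The mean over cells gave 110 higher genes, and a matrix sum from 45 gave 79 lower ones. Leaving out the fibro-adipogenic cells reversed the Meg3 ratio, to 0.333. No paired analysis was possible because each fraction is 1 library. Depth limits the GFP+ values, which rest on 53 cells.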
